A study of Mus musculus with 23 samples.

Results

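The genes described here are 10 components of the oxygen-sensing and VEGF pathway, chosen by symbol: the HIF subunit genes Hif1a, Epas1 (HIF-2α) and Arnt (HIF-1β), the prolyl hydroxylase genes Egln1 (PHD2) and Egln3 (PHD3), the angiogenic ligand genes Vegfa, Vegfb, Vegfc and Adm (adrenomedullin), and the mitophagy receptor gene Bnip3. All 10 were present among the 35455 genes of the first expression table and the 35454 genes of the second. RNA was sequenced from 23 libraries of tdTomato+ cells sorted from mouse lung tumors. The study's methods treat separate animals and separate tumors as biological replicates, and the labels do not tie a library to a mouse, so p-values measure the spread between libraries. All mice carried 1 Braf CAT allele, which expresses BRAFV600E and tdTomato only after CRE recombination, on a mixed genetic background, and were 3 to 4 months old. The first table held 6 BRAFV600E libraries (CAT/+), of which 1 was taken at 2 weeks, 3 at 6 weeks and 2 at 12 weeks post-initiation (p.i.), and 8 BRAFV600E/PI3KαH1047R libraries, which also carried 1 Pik3ca lat-H1047R allele, with 2, 4 and 2 libraries at these weeks. The second table held BRAFV600E tumors at 12 weeks p.i., 5 heterozygous (PGC1αHet, lox/+) and 4 homozygous (PGC1αNull, lox/lox) for floxed Ppargc1a. CRE came from an intranasal adenovirus with the surfactant protein C promoter, which is active in alveolar type 2 (AT2) cells. The mice taken at 2 and 6 weeks received 7 log10 plaque-forming units of virus and those taken at 12 weeks 6, so week 12 and titer cannot be told apart. Uninfected lung was not analysed here.

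Oxygen sensing works at the level of protein. With oxygen present, EGLN enzymes hydroxylate the HIF-α subunits, which VHL then marks for destruction, and when oxygen is scarce HIF-α pairs with ARNT on hypoxia response elements and raises genes such as Vegfa, Adm, Egln3 and Bnip3. In the lung, HIF-2α is abundant in endothelial cells, and VEGF-A made by the alveolar epithelium, alveolar type 1 (AT1) cells in particular, signals to the capillaries beside it. The values below are mRNA levels, given as normalized counts (the authors' Salmon estimates after DESeq2 normalization), and say nothing of hydroxylation or protein stability.

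RefSeq promoter windows of 300 bases (250 before the start site, 50 after it, GRCm38.p6) were listed for 9 of the 10 genes, with 2 windows for Vegfa. Epas1 had no entry. The windows shown are those of Vegfa and Hif1a because their 12 and 2 week libraries did not overlap (13.2% of all genes tested did not), in opposite directions, and that of Bnip3 because it holds the whole palindrome of the element's core. Capitals mark ACGTG, the core searched on both strands (CACGT when read on the other strand).
Vegfa, chr17:46032328-46032627, minus strand: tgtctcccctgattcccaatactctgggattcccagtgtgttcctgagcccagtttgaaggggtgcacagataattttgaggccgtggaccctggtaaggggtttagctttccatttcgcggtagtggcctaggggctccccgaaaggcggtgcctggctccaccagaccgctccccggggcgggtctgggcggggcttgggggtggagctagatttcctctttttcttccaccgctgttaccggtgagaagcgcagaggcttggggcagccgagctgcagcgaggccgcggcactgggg
Hif1a, chr12:73907617-73907916, plus strand: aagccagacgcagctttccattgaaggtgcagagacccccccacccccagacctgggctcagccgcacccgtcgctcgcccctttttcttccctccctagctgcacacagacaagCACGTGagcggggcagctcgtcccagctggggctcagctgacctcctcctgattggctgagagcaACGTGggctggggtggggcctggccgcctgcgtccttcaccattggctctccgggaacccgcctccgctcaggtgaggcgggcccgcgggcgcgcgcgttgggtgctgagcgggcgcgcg
Bnip3, chr7:138909457-138909756, minus strand: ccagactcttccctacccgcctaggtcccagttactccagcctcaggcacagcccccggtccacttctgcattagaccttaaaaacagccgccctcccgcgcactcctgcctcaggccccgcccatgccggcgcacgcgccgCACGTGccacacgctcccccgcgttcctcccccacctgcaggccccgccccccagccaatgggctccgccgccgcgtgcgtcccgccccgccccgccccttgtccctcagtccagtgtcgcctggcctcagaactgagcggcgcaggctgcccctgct
The core was found in 5 of the 10 windows (Hif1a, Egln1, Egln3, Bnip3 and the downstream window of Vegfa) and in 19.6% of the 32851 windows of all genes. With GCGTG also accepted, the wider form of the core, 8 of the 10 windows and 43.8% of all windows held a match, and these GCGTG matches are not in capitals. The motif overlaps the E-box CACGTG bound by other factors, and the window of Hif1a lies at a start site downstream of the gene's first annotated base. In GENCODE vM21, Hif1a and Bnip3 share exon bases with antisense genes (Gm15283, 330 bases, and Gm45507, 504 bases). Hif1a also shares 148 exon bases with Gm49321 on the same strand, where strand cannot tell reads apart. Whether the counting used strand is not given in the sources used here. Reads from the antisense stretches may therefore not be told apart either.

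The libraries of the first table summed to 16433820 to 20287296 normalized counts and those of the second to 7115753 to 9159567. Reads per library could not be recovered from these values, so depth is unknown. AT2 markers (12 genes) summed to 84095 to 1634430 normalized counts per library in the first table and all were above 0, but markers of other lung cells were present in the sorted cells as well. The 18 endothelial markers summed to 13556 to 218238 in the first table and to 662 to 3076 in the second. None was listed at 0 in the first table, and 1 to 4 were in 3 libraries of the second. Fewer cells of a type and less RNA per cell cannot be told apart in these bulk libraries. Kdm5d, which is Y-linked, went against the sex labels of both 12 week BRAFV600E/PI3KαH1047R libraries (502 normalized counts where the label is male and 4728 where it is female). Each comparison over several weeks was also run without them. The 2 week comparison set 1 female against 2 male libraries, so within that week a sex difference cannot be told apart from a genotype difference. Over all weeks the labels gave 5 female and 1 male BRAFV600E libraries, and 3 female and 5 male BRAFV600E/PI3KαH1047R libraries. Sex and genotype were thus partly tied there too. Sex in the fits and comparisons below is as labelled, also for both libraries that went against Kdm5d. Ppargc1a, the floxed gene, had 75.8 to 561 normalized counts in PGC1αHet and 38.0 to 124 in PGC1αNull libraries, which overlapped. A gene-level estimate also counts transcript outside the deleted part, so this was a limited check of the labels. Pik3ca, whose mutation is not seen at this level, had 1376 to 4703 in BRAFV600E/PI3KαH1047R and 3891 to 5933 in BRAFV600E libraries, and Braf 2131 to 4318 and 2246 to 4332.

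The levels spanned 3 orders of magnitude. Divided by the median length of each gene's coding transcripts, the mean of the 14 libraries of the first table ran from 8507 normalized counts per kb for Vegfa and 6519 for Epas1 through 1244 for Arnt, 603 for Hif1a, 412 for Bnip3, 411 for Egln1, 170 for Vegfc and 117 for Vegfb down to 12.5 for Adm and 7.08 for Egln3. Vegfa was above Epas1 in 11 of 14 libraries, and with each gene's longest coding transcript as divisor the order of the means turned (2817 for Vegfa against 6519 for Epas1). Bnip3 exceeded Egln1 in 6 of 14 libraries and Vegfc exceeded Vegfb in 7 of 14, so these neighbours did not differ beyond their spread. Adm exceeded Egln3 in 10 of 14. Epas1 per kb was 1.59 to 40.4 times Hif1a per kb (median 7.25, 14 libraries), and in every library of both tables the HIF-2α transcript was the more abundant. Vegfa per kb was 18.4 to 259 times Vegfb per kb, a ratio that is smaller with the longest transcripts (means of 2817 and 111 per kb). In the second table the order began in the same way, with 1542 per kb for Vegfa, 736 for Epas1 and 308 for Arnt, and in all 9 libraries these 3 genes stood in this order (511 for Vegfa against 736 for Epas1 with the longest transcript).

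**Figure D1:**
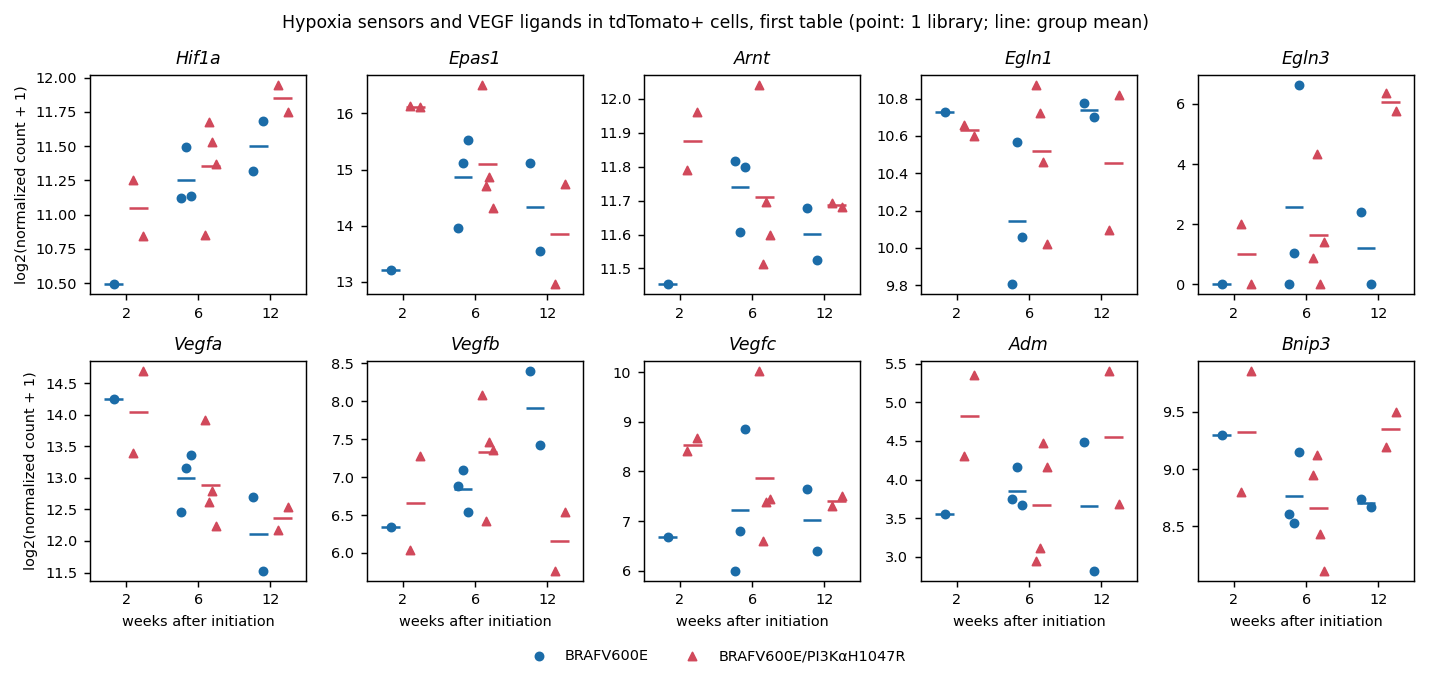
Level of each gene in the 14 libraries of the first table, as log2(normalized count + 1) on the vertical axis (a separate scale for each gene) by weeks p.i. on the horizontal axis. Each point is 1 library, circles BRAFV600E and triangles BRAFV600E/PI3KαH1047R, and lines are group means. Vegfa at 12 weeks lies below all 2 week libraries and Hif1a at 12 weeks above them.

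The first comparison asked whether PI3KαH1047R, an activated form of the p110α kinase, changed these genes in BRAFV600E tumor cells. With all weeks together, 0 of the 10 genes passed an adjusted p of 0.05 in limma, where 4 of 17558 genes did (0.0228%), and 0 had an unadjusted p under 0.05, where 6.83% of all genes did. Their median log2 fold change was 0.18 against 0.02 over all genes, and 9 of 10 estimates were above 0. The estimates ran from -0.25 to 0.92 and every interval included 0. Epas1 ranged from 9454 to 47195 normalized counts in BRAFV600E libraries (median 25589) and from 7924 to 93657 in BRAFV600E/PI3KαH1047R libraries (median 28650). The groups overlapped over most of this range, and the log2 fold change was 0.63 (SE 0.52, adjusted p = 0.831 in limma, and p = 0.297 in a two-sided exact permutation test). Hif1a ran from 1437 to 3283 (median 2406) in BRAFV600E and from 1839 to 3955 (median 2799) in BRAFV600E/PI3KαH1047R libraries, a log2 fold change of 0.20 (SE 0.22). Compared within weeks the difference of Hif1a was 0.34 (exact permutation p = 0.0714), and over all weeks it was 0.05 without the 2 week BRAFV600E library and without both 12 week BRAFV600E/PI3KαH1047R libraries. Arnt, their shared partner, had the smallest standard error of the 10, with a log2 fold change of 0.10 (95% interval -0.17 to 0.37).

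Neither hydroxylase gene separated the genotypes over all weeks. Egln1, the main oxygen sensor of the family, had a log2 fold change of 0.09 (95% interval -0.33 to 0.52). Egln3 was near the bottom of the scale, listed at 0 in 3 of 6 BRAFV600E and in 2 of 8 BRAFV600E/PI3KαH1047R libraries, with single libraries up to 98.9 and 81.8. Its log2 fold change of 0.92 (SE 1.29) ran from 0.38 to 1.91 with each library left out, the highest without BRAFV600E replicate 3 of 6 weeks. It was -0.24 without both 12 week BRAFV600E/PI3KαH1047R libraries. Among the ligands, Vegfa was 0.14 (SE 0.44), Vegfb -0.25 (SE 0.40), Vegfc 0.86 (SE 0.52, adjusted p = 0.756) and Adm 0.44 (SE 0.47). Bnip3 was 0.17 (SE 0.26). With each library left out, Bnip3 ran from 0.04 to 0.29, Adm from 0.26 to 0.62 and Arnt from 0.06 to 0.13. Vegfa turned to -0.02 with week in the fit and Adm to -0.02 with sex in the fit. Epas1 was 1.03 without both 12 week BRAFV600E/PI3KαH1047R libraries (limma adjusted p = 0.508). Compared within labelled sexes, the log2 difference was 0.23 for Hif1a, 0.24 for Epas1, 0.04 for Arnt, 0.30 for Egln1 and -0.86 for Egln3. It was -0.05 for Vegfa, 0.01 for Vegfb, 0.16 for Vegfc, 0.29 for Adm and 0.08 for Bnip3.

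**Figure D2:**
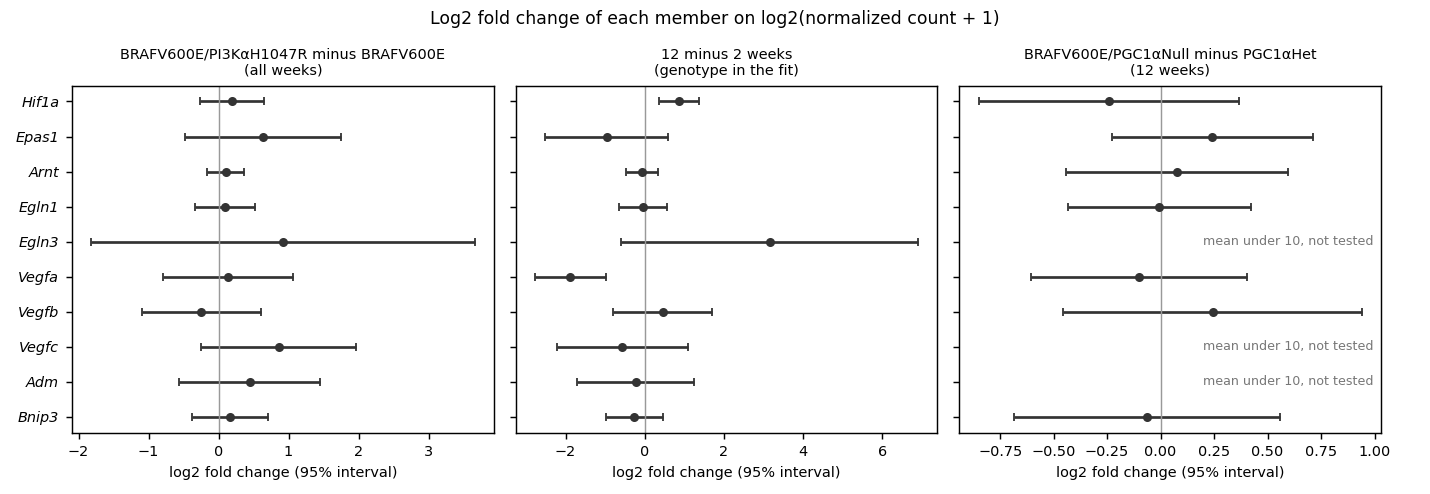
Log2 fold change of each gene (points) with its 95% interval (bars) from limma, for BRAFV600E/PI3KαH1047R against BRAFV600E over all weeks, 12 against 2 weeks with genotype in the fit, and PGC1αNull against PGC1αHet. The horizontal scales differ between panels. Intervals that leave out 0 appear for Vegfa (-1.88) and Hif1a (0.86) in the middle panel, and Egln3, Vegfc and Adm were below the mean of 10 normalized counts needed for the right panel.

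Within single weeks, the 2 week comparison set 1 BRAFV600E library against 2, and its test rests on the spread of the other groups. Epas1 had 9454 normalized counts in the BRAFV600E library and 71592 and 70599 in the BRAFV600E/PI3KαH1047R libraries. The log2 fold change was 2.91 (SE 0.95, limma adjusted p = 0.213), and 3.49 with sex, estimated over all weeks, in the fit (adjusted p = 0.247). Vegfc, the lymphatic growth factor, had 101 against 339 and 405, a log2 fold change of 1.87 (SE 1.27, adjusted p = 0.557). Epas1 was the 1 gene of 10 with an unadjusted p under 0.05, against 13.5% of all genes, and 0 of 10 passed adjustment, against 0.0171%. Of the 10, 6 did not overlap between the genotypes, against 71.7% of all genes tested.

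Endothelial markers also had a higher sum in these BRAFV600E/PI3KαH1047R libraries, with only 1 BRAFV600E library to compare. Their sum was 13556 in the BRAFV600E library at 2 weeks and 159194 and 128738 in the BRAFV600E/PI3KαH1047R libraries. All 18 estimates were above 0 at 2 weeks, with a median log2 fold change of 3.51 (15 with an unadjusted p under 0.05, 0 adjusted), while 12 of 12 AT2 markers were lower, with a median of -2.29. Macrophage (12 of 14 above 0, median 1.99) and fibroblast markers (10 of 10, median 1.096) had higher estimates as well, and their part in the values of Epas1 and Vegfc was not tested. With the endothelial score as a covariate, the log2 fold change of Epas1 was -0.20 over all weeks. At 2 weeks it was 0.01, and that of Vegfc was -1.56. The mean log2 level of the endothelial markers was 8.01 in the BRAFV600E library of that week, against 11.35 and 11.22. The score thus goes with genotype at 2 weeks, and this fit cannot tell genotype from cell makeup there. Across the 14 libraries the genes whose level followed Epas1 most closely were Thbd (thrombomodulin, an anticoagulant receptor of endothelial cells, Pearson's r = 0.996), Pitpnc1 (0.989) and Tspan18 (0.988), a description over 14 libraries that share genotype, week and cell makeup. In the 9 libraries of the second table r for these 3 was 0.23, 0.61 and -0.17. The 3 had been picked for the highest r in the first table, and the reason for the lower r was not tested.

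**Figure D3:**
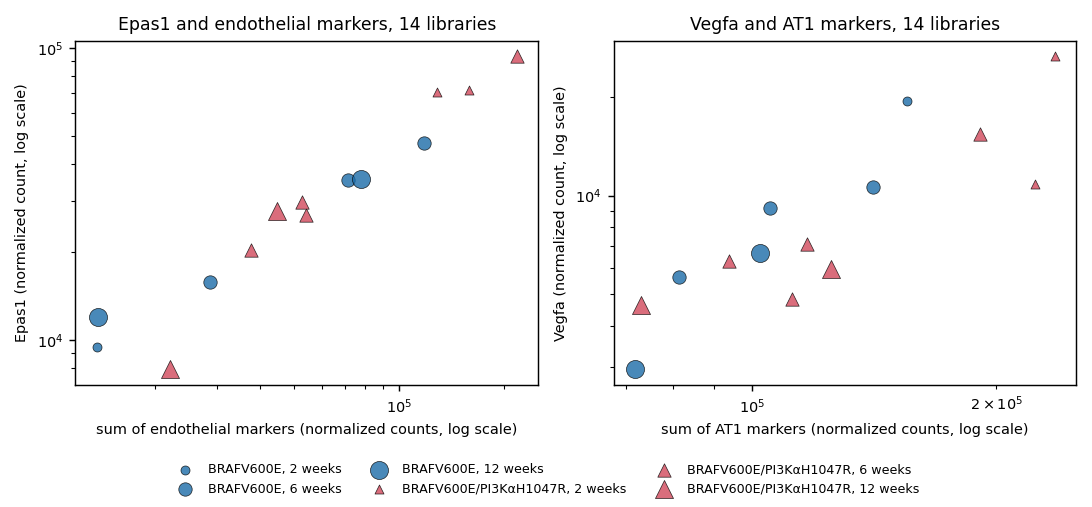
Normalized counts of Epas1 against the sum of 18 endothelial markers (left) and of Vegfa against the sum of 12 AT1 markers (right), in the 14 libraries of the first table, all axes logarithmic. Each point is 1 library, with genotype by color and shape and week by size. Epas1, from 7924 to 93657 normalized counts, is higher where the endothelial sum is higher, and the highest Vegfa levels lie at high AT1 sums.

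At 6 weeks, the only week with at least 3 libraries of each genotype, 0 of 10 genes passed adjustment (0.0228% of all genes did) or had an unadjusted p under 0.05 (4.24% did), and the estimates lay between -0.90 (Egln3) and 0.64 (Vegfc). Replicate 1 of BRAFV600E/PI3KαH1047R stood apart there, with 93657 normalized counts of Epas1 and 1044 of Vegfc against at most 29722 and 173 in the other 3 libraries. It also had the largest endothelial sum of the table, 218238. Without it the log2 fold change over all weeks was 0.42 for Epas1 and 0.56 for Vegfc.

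At 12 weeks 2 of 10 genes had an unadjusted p under 0.05, against 3.76% of all genes, and 0 passed adjustment, against 0.0114%. Vegfb, the VEGFR1 ligand, had 338 and 171 normalized counts in BRAFV600E and 53.4 and 92.4 in BRAFV600E/PI3KαH1047R libraries, a log2 fold change of -1.76 (SE 0.62, limma adjusted p = 1). Egln3 had 4.25 in one BRAFV600E library, was listed at 0 in the other, and had 81.8 and 53.0 in the BRAFV600E/PI3KαH1047R libraries. The fitted log2 difference of 4.87 (SE 2.07, adjusted p = 1) depends on the value added before the logarithm and was 3.61 with 4 in place of 1. Between the genotypes 5 genes did not overlap (Hif1a, Arnt, Egln3 and Bnip3 higher, Vegfb lower), against 29.2% of all genes tested, and 2 against 2 libraries cannot go below p = 0.333 in an exact permutation test. Both libraries whose sex labels went against Kdm5d are in this comparison, and no test is possible without them.

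The genotype difference itself was compared between weeks with interaction terms. None of the 10 genes passed adjustment in any of the 3 contrasts, where 0 of all genes did. For Epas1 the difference was lower at 6 than at 2 weeks by 2.67 log2 units (SE 1.12, limma adjusted p = 0.535) and lower at 12 than at 2 weeks by 3.39 (SE 1.23, adjusted p = 0.466). For Vegfb it was lower at 12 than at 6 weeks by 2.25 (SE 0.78, adjusted p = 1.00), and for Egln3 it was higher by 5.77 (SE 2.60, adjusted p = 1.00). These 4 estimates had an unadjusted p under 0.05, which was found for 8.95%, 2.87% and 9.1% of all genes in the contrasts of 6 with 2, 12 with 6 and 12 with 2 weeks.

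The next comparison asked how these genes differed between weeks p.i., with genotype held fixed. Vegfa, the main VEGF ligand of the lung, had lower and Hif1a higher mean levels at each later week (Vegfa 18960 ± 7891, 8435 ± 3680 and 5050 ± 1629, Hif1a 1905 ± 504, 2581 ± 498 and 3308 ± 577 normalized counts at 2, 6 and 12 weeks, mean ± SD over 3, 7 and 4 libraries), but neither passed adjustment. Vegfa had 19477 normalized counts in BRAFV600E and 10824 and 26581 in BRAFV600E/PI3KαH1047R libraries at 2 weeks. At 6 weeks it ran from 4840 to 15434 (median 7095, 7 libraries), and at 12 weeks it had 6658 and 2953 in BRAFV600E and 4642 and 5949 in BRAFV600E/PI3KαH1047R libraries. All 4 libraries at 12 weeks were below all 3 at 2 weeks, in both genotypes.

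Against 2 weeks, the log2 fold change of Vegfa was -1.18 at 6 weeks (SE 0.38, limma adjusted p = 0.254) and -1.88 at 12 weeks (95% interval -2.78 to -0.99, adjusted p = 0.0540). Between 6 and 12 weeks it was -0.70 (SE 0.34, adjusted p = 0.901). The contrast of 12 with 2 weeks was added after the data were seen. Its exact permutation p within genotypes was 0.0556, the smallest that these group sizes allow. Over the alternatives the adjusted p of Vegfa at 12 against 2 weeks ran from 0.0215 to 0.376, and it passed 0.05 with a mean of at least 40 normalized counts, with the endothelial covariate, without BRAFV600E replicate 1 of 12 weeks and without BRAFV600E/PI3KαH1047R replicate 1 of 6 weeks (adjusted p = 0.0244). The log2 fold change at 12 weeks lay between -2.24 and -1.59 in all of the alternatives, with -2.09 (adjusted p = 0.376) without both 12 week BRAFV600E/PI3KαH1047R libraries.

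Hif1a, the HIF-1α subunit, differed in the other direction. It had 1437 normalized counts in BRAFV600E and 2439 and 1839 in BRAFV600E/PI3KαH1047R libraries at 2 weeks, 1843 to 3270 at 6 weeks (median 2639, 7 libraries), and 2559 and 3283 in BRAFV600E and 3955 and 3437 in BRAFV600E/PI3KαH1047R libraries at 12 weeks. All 4 libraries at 12 weeks were above all 3 at 2 weeks. The log2 fold change was 0.47 at 6 against 2 weeks (SE 0.21, limma adjusted p = 0.397), 0.38 at 12 against 6 weeks (SE 0.19, adjusted p = 0.901) and 0.86 at 12 against 2 weeks (SE 0.23, adjusted p = 0.0893). The adjusted p of the last ran from 0.0355 to 0.533 over the alternatives (0.533 without both 12 week BRAFV600E/PI3KαH1047R libraries) and passed 0.05 only without BRAFV600E/PI3KαH1047R replicate 1 of 6 weeks. Vegfa and Hif1a were the 2 of 10 genes whose 12 and 2 week libraries did not overlap, against 13.2% of all genes tested.

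Over the 10 genes, 2 had an unadjusted p under 0.05 at 6 against 2 weeks (11.9% of all genes), 0 at 12 against 6 weeks (5.31%) and 2 at 12 against 2 weeks (17.1%). None passed adjustment, where 0.0513%, 0.0% and 0.786% of all genes did. Egln1 had the estimate nearest 0 between 2 and 12 weeks, a log2 fold change of -0.05 (95% interval -0.66 to 0.56). Epas1 was -0.96 (SE 0.72), Vegfc -0.57 (SE 0.77), Bnip3 -0.27 (SE 0.34), Adm -0.23 (SE 0.69), Arnt -0.07 (SE 0.19) and Vegfb 0.45 (SE 0.58). Egln3 was 3.15 (SE 1.75), with the dependence on the added value described above.

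Markers of lung cell types differed between the weeks too. The sum of 12 AT1 markers was 155337 to 236501 at 2 weeks and 71801 to 125175 at 12 weeks, and 10 of 12 were lower at 12 weeks, 3 of them past adjustment (Ager, Akap5 and Rtkn2), with a median log2 fold change of -0.99. All 12 AT2 markers were higher, with a median of 2.32 and 1 past adjustment (Etv5). In this contrast 0.786% of all genes passed, and 0 did without both 12 week BRAFV600E/PI3KαH1047R libraries or without replicate 1 of them alone. Of 10 fibroblast markers 9 were lower, with a median of -1.57, and of 14 macrophage markers 12 were higher, with a median of 1.30. Of 18 endothelial markers 15 were lower (median -0.82, 0 past adjustment), and of 8 lymphocyte markers 5 were higher (median 0.57), 1 of them past adjustment (Cd3e). With the endothelial score as a covariate the log2 fold change was -1.66 for Vegfa and 0.82 for Hif1a, and the part of the other cell types in these values was not tested. Closest to Vegfa across the 14 libraries were Timp3 (r = 0.948), Ctgf (0.942) and Epb41l4a (0.941), which had r of 0.64, 0.56 and 0.45 in the second table. Closest to Hif1a were Ctsd (cathepsin D, 0.903), AC034099.1 (0.892) and Pik3c2b (0.885), with 0.37, 0.39 and 0.64 there.

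Each of the other members also had its 3 closest genes taken from 11545 or 11546 compared, as a description only. For Arnt these were Spin1 (r = 0.924), Pik3ip1 (0.904) and Tlnrd1 (0.900), and for Egln1 they included Ddx24 (0.851) and Ddx27 (0.823). For Vegfc they were Rps6ka2 (0.940), Itm2b (0.919) and Vim (0.915), and for Vegfb Adgrl1 (0.832), Btg2 (0.829) and Gm20775 (0.793). For Adm they were Zfat (0.843), Gm1966 (0.758) and Igtp (0.738), for Bnip3 Mrps18a (0.806), Vamp2 (0.745) and Marc2 (0.740), and for Egln3 Bloc1s5 (0.803), Cyp26b1 (0.767) and Haus7 (0.752). Over the 9 libraries of the second table r for the same pairs ran lower, from 0.65 for Arnt with Tlnrd1 to -0.59 for Vegfb with Gm20775.

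The rest of the pathway was followed in 3 lists. Of 14 genes of the oxygen-sensing machinery (other HIF subunits, Egln2, the asparaginyl hydroxylase gene Hif1an and the VHL complex among them), 0 passed adjustment in any comparison. With PI3KαH1047R over all weeks 2 of the 14 had an unadjusted p under 0.05 (6.83% of all genes did), both lower. They were Siah2, a ubiquitin ligase that acts on prolyl hydroxylases, at -1.18 (SE 0.30, limma adjusted p = 0.292) and Elob, a subunit of the VHL complex, at -0.76 (SE 0.25, adjusted p = 0.511), and Hif3a, also among the 3 estimates of largest size, was 1.07 (SE 0.64). Between 2 and 6 weeks the estimates of largest size were P4htm -1.53, Hif3a -1.32 and Arnt2 -0.75. Between 6 and 12 weeks they were Vhl 0.68, Cul2 0.44 and Hif3a 0.35. At 12 against 2 weeks they were Vhl 1.37 (SE 0.41, limma adjusted p = 0.112), P4htm -1.37 and Hif3a -0.98.

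Of 16 other ligands, receptors, co-receptors and angiopoietin-family genes of the VEGF and adrenomedullin axis, 14 were tested in the first table and 0 passed adjustment. With PI3KαH1047R over all weeks 13 of 14 estimates were above 0 (median 0.66, 2 with an unadjusted p under 0.05), led by Ramp3 1.16, Tie1 1.11 and Angptl4 1.04, and at 2 weeks all 14 were above 0 with a median of 2.33. At 6 weeks 10 were above 0 (median 0.15) and at 12 weeks 6 were (median -0.28). Most of these are endothelial genes and 2 (Calcrl and Ramp2) are also in the endothelial marker list, whose 18 estimates over all weeks had a median of 0.87. At 12 against 2 weeks 13 of 14 were below 0 (median -1.08), and those of largest size were Angpt1 -3.15 (limma adjusted p = 0.0927), Vegfd -2.91 (adjusted p = 0.0805) and Nrp2 -1.48 (adjusted p = 0.0517). The estimates of largest size at 6 against 2 weeks were Angptl4 -1.57, Angpt1 -1.40 and Vegfd -1.35, and at 12 against 6 weeks Angpt1 -1.75, Vegfd -1.56 and Calcrl -1.29.

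Of 40 textbook HIF target genes, 1 passed adjustment in any comparison, in the contrast of 12 with 2 weeks where 0.786% of all genes did. Plod2, the collagen lysyl hydroxylase, had 3529 to 4028 normalized counts at 2 weeks and 226 to 760 at 12 weeks, which did not overlap, and its log2 fold change of 12 against 2 weeks was -3.14 (SE 0.60, limma adjusted p = 0.0378). Like every other call of this contrast, it was lost without both 12 week BRAFV600E/PI3KαH1047R libraries. The loss alone says nothing of the size of the Plod2 estimate. At 12 against 2 weeks 29 of 40 estimates of the list were above 0, with a median of 0.25. Of the 40, 16 had an unadjusted p under 0.05, 12 higher and 4 lower (17.1% of all genes did). Hk2, the hexokinase of the glycolytic arm, was 2.08 (SE 0.60, adjusted p = 0.102), and Lox, which crosslinks collagen, was -2.02 (SE 0.72, adjusted p = 0.166). With PI3KαH1047R over all weeks 24 of 40 were above 0 (median 0.15 against 0.02 over all genes), and the estimates of largest size were Car9 1.13, Hk2 -1.03 and Eno1 0.82. At 6 against 2 weeks they were Plod2 -1.80, Lox -1.61 and Tfrc 1.46, and at 12 against 6 weeks Stc2 2.29, Hilpda -1.42 and Plod2 -1.34, with 30 of 40 above 0 (median 0.33) and 10 with an unadjusted p under 0.05 (5.31% of all genes).

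The second table asked whether loss of PGC1α, a coactivator of mitochondrial genes, changed the same genes in BRAFV600E tumors at 12 weeks. Of the 10, 7 passed the filter of a mean of at least 10 normalized counts, and 0 of these had an adjusted p under 0.05 (0.0% of 17424 genes did) or an unadjusted one (3.83% did). Epas1 had 3384, 3266, 4471, 4634 and 3053 normalized counts in PGC1αHet and 4307, 5491, 4223 and 3701 in PGC1αNull libraries. The ranges overlapped, and the log2 fold change was 0.24 (95% interval -0.23 to 0.71, limma adjusted p = 0.998, exact permutation p = 0.214). Hif1a ran from 407 to 960 (median 623) in PGC1αHet and from 443 to 768 (median 552) in PGC1αNull libraries, a log2 fold change of -0.24 (95% interval -0.85 to 0.37). Arnt was 0.08 (SE 0.24) and Egln1 -0.01 (95% interval -0.43 to 0.42).

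**Figure D4:**
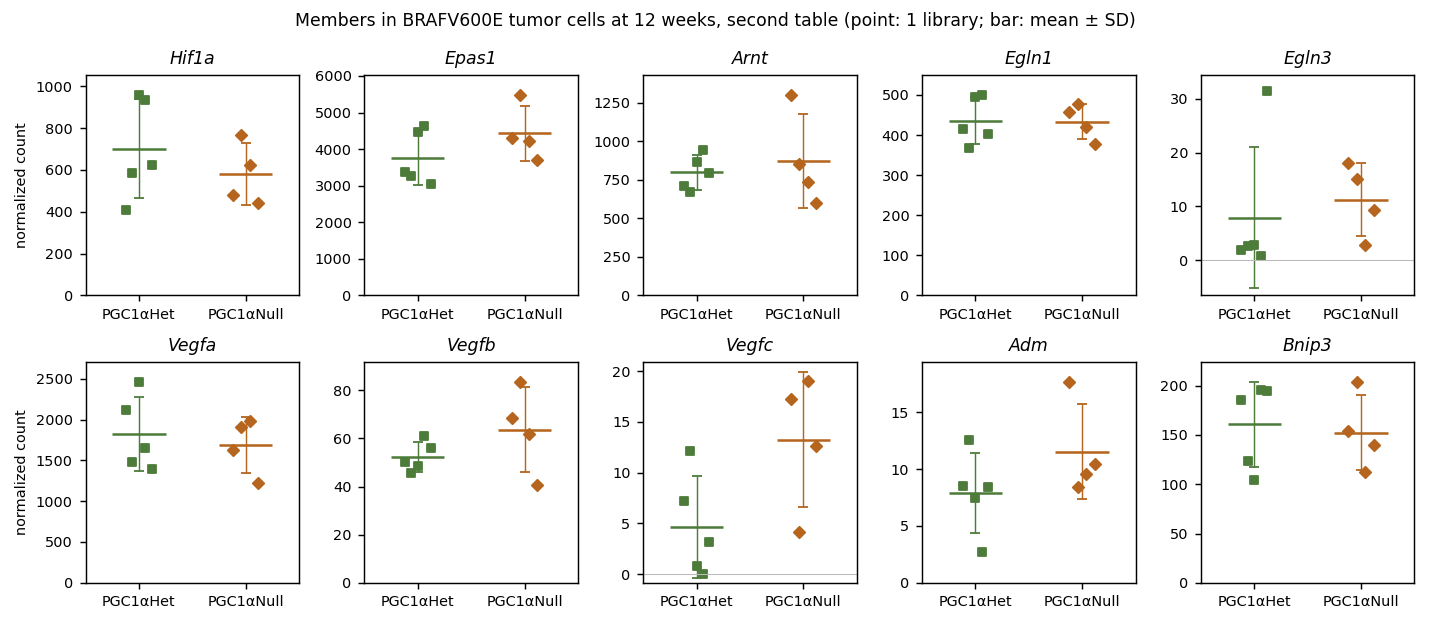
Normalized counts of each gene (vertical axis, a separate scale for each gene) in 5 PGC1αHet and 4 PGC1αNull libraries at 12 weeks p.i. Points are libraries, horizontal lines means and bars ± SD. The groups overlap for all 10 genes, as they do for all but 1.4% of the genes tested, with 1400 to 2461 against 1225 to 1985 for Vegfa.

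Vegfa had 2122, 1477, 2461, 1655 and 1400 normalized counts in PGC1αHet and 1629, 1914, 1985 and 1225 in PGC1αNull libraries, a log2 fold change of -0.10 (95% interval -0.61 to 0.41). Vegfb was 0.24 (95% interval -0.45 to 0.94) and Bnip3, which marks mitochondria for removal, was -0.06 (95% interval -0.69 to 0.56). With each library left out, Vegfb ran from 0.10 to 0.44, Epas1 from 0.13 to 0.32 and Hif1a from -0.42 to -0.11. The 3 genes below the filter were Egln3 (0.891 to 31.3 in PGC1αHet, 2.85 to 18.0 in PGC1αNull), Adm (2.71 to 12.6 and 8.46 to 17.7) and Vegfc. Vegfc had 7.22, 12.1, 0.836 and 3.19 normalized counts in 4 PGC1αHet libraries and was listed at 0 in the other, against 17.3, 4.12, 19.004 and 12.6 in PGC1αNull libraries. The exact permutation p of Vegfc was 0.0952, where 5 against 4 libraries can reach 0.00794.

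Markers of several other lung cell types had higher estimates in PGC1αNull libraries, but none passed adjustment. The endothelial sum was 662 to 1423 in PGC1αHet and 1781 to 3076 in PGC1αNull libraries. Of 16 tested endothelial markers 16 were above 0, with a median log2 fold change of 1.88. In limma 13 had an unadjusted p under 0.05, against 3.83% of all genes, and 0 an adjusted one. With the endothelial score as a covariate the estimate for Epas1 was 0.54. Fibroblast (9 of 9 above 0, median 1.51) and club or ciliated markers (6 of 6, median 1.89) were higher in the estimates too. So were most macrophage (12 of 14, median 0.95), lymphocyte (6 of 7, median 0.98) and neutrophil markers (5 of 6, median 0.43). Of 12 AT2 markers 1 was above 0 (median -0.21), and of 12 AT1 markers 5 were (median -0.01). Of the VEGF and adrenomedullin axis 13 genes were tested, with a median of 0.90 and the largest estimates at Tek 3.71 (adjusted p = 0.216), Calcrl 2.66 and Ramp2 2.62. The oxygen-sensing machinery had a median of -0.07 over 14 genes (Arnt2 -1.21, Vhl -0.85 and P4htm 0.77 were the largest in size) and the HIF targets -0.02 over 39 (Lox 1.07, Mxi1 0.74 and Slc16a3 0.52). The tables were normalized separately and were not tested against each other.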

How the data were processed

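Each library was assigned to genotype and week by its label. The signal values in the deposited tables are the authors' Salmon estimates after DESeq2 normalization on Galaxy (versions not given in the sources used here, GRCm38 named in the submitters' processing notes), and the deposited comparison tables (base mean, log2 fold change, standard error, Wald statistic, p-value and adjusted p-value) were not used. RNA (integrity number above 6) was amplified by the Ovation Ultralow V2 chemistry and read single-end for 50 cycles. Of the values under 20, 10.6% to 41.4% per library were whole multiples of a presumed 1-read step (tolerance 0.01), too few to recover counts. Genes with a mean of at least 10 entered limma 3.58.1 (R 4.3.3, trended variance, two-sided) as the log2 of the normalized count plus a pseudocount of 1, at a Benjamini-Hochberg adjusted p under 0.05, and single genes by exact permutation of libraries (Python 3.11.15). Fold changes on this scale understate low genes. A genotype difference was fitted over all weeks or from 1 mean per genotype and week, and week contrasts with genotype in the fit. Fixed alternatives were a pseudocount of 4, a mean of at least 40, no filter, quantile normalization, sex, week or the endothelial score in the fit, a replicate block, and leaving out libraries. On simulated data limma called 73% of 200 genes changed by 2 log2 units over all weeks, 39% at 6 weeks, 57% in the contrast of 6 with 2 weeks and 60.5% in that of 12 with 6 (17558 genes each) and 55% in the PGC1α comparison (17424 genes), with 3 to 8 false calls beside the changed genes and 0 calls in runs where no gene was changed. No simulation was made for the contrast of 12 with 2 weeks or for the genotype comparisons at 2 and 12 weeks. Members and gene lists were chosen with earlier results of these data known. The text names all members, for each of the 3 pathway lists the genes past adjustment and the 3 of largest estimate in the comparisons of PI3KαH1047R over all weeks, 6 with 2 weeks, 12 with 6 weeks and PGC1αNull, and for each member the 3 genes of highest Pearson's r among those with a mean of at least 100, of which 1 is not reported here. The list genes given for 12 against 2 weeks, other than Plod2, and the named AT1, AT2 and lymphocyte markers were singled out after their values were seen. Ero1a was matched by synonym.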

Additional observations from a re-analysis of the deposited data

Results flagged for a closer look

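Of 50 tests of 1 gene in 1 group of 4 to 8 libraries, 8 found a library far from the rest by Dixon's criterion. Chance gives about 1 in 20 only for separate tests of normally spread values. These were counts without a logarithm, and groups shared libraries, so 8 of 50 cannot be set against that rate. Of the 8, 4 were among the BRAFV600E/PI3KαH1047R libraries, with 1 Vegfc value flagged both within its week and over all weeks. Replicate 1 of 6 weeks had 93657 normalized counts of Epas1 (next 29722) and 1044 of Vegfc (next 173 among the 6 week libraries and 405 among all 8), and replicate 2 of 6 weeks had 19.1 of Egln3 (next 1.69). Among the 6 BRAFV600E libraries, replicate 3 of 6 weeks had 98.9 of Egln3 (next 4.25) and 465 of Vegfc (next 198), and replicate 1 of 12 weeks had 338 of Vegfb (next 171). In the second table, replicate 5 of PGC1αHet had 31.3 of Egln3 (next 2.78). BRAFV600E/PI3KαH1047R replicate 1 of 6 weeks also had the largest endothelial marker sum of the first table (218238 normalized counts). These groups combine weeks where a genotype's libraries of the first table were pooled.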

How the results depend on the processing

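Of 561 values of single members under alternatives (27 results), 530 kept their direction and their side of the threshold. Of the rest, 26 changed sign and 5 passed the threshold. None lost it, but no member had passed it in the main fits, so none could. The cause of these changes was not tested, and 12 against 2 weeks was chosen after seeing the data. Sign changes for PI3KαH1047R over all weeks were Adm with sex as a factor (-0.018), Epas1 (-0.20) and Vegfa (-0.24) with the endothelial score, Vegfa with week (-0.019) and Egln3 without both BRAFV600E/PI3KαH1047R 12 week libraries (-0.24), and at 2 weeks Vegfc with the endothelial score (-1.56). For PGC1αNull they were Egln1 with quantile normalization (0.033), Bnip3 with the replicate block (0.017), and Hif1a (0.042), Egln1 (0.12) and Vegfa (0.034) with the endothelial score. Leaving out each library gave ranges across 0 for Egln1 (-0.035 to 0.17), Vegfa (-0.14 to 0.41) and Vegfb (-0.42 to 0.011) over all weeks, and for Arnt (-0.14 to 0.24), Egln1 (-0.065 to 0.058), Vegfa (-0.19 to 0.045) and Bnip3 (-0.21 to 0.074) with PGC1αNull.

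Genes called for PI3KαH1047R over all weeks (4) became 7 with a pseudocount of 4. At 2 weeks (3) they became 107 with no filter, 1 with the endothelial score, 1 without both 12 week libraries, and 0 with a pseudocount of 4, quantile normalization or sex. At 6 weeks (4) they became 7 with a pseudocount of 4 or quantile normalization, 10 with the endothelial score, and 1 with no filter, sex or without both libraries. At 12 weeks (2) they became 4 with a pseudocount of 4 or quantile normalization and 16 with no filter. For 6 against 2 weeks (9) they became 3 with a pseudocount of 4 or without both libraries, 4 with quantile normalization or sex, and 452 with the endothelial score. For 12 against 6 weeks (0) they became 2 with the mean over genotypes. For 12 against 2 weeks (138) they became 4 with no filter, 15 with the mean over genotypes, 585 with the endothelial score and 0 without both libraries, and members called (0) became 1 with a mean of at least 40 and 1 with the endothelial score. With the replicate block the genotype comparisons at 2 and 6 weeks and the contrast of 6 with 2 weeks each gave 0 genes, and that of 12 with 2 weeks gave 2. Same-numbered libraries had correlations of deviations from -0.47 to 0.21, so the numbers were not taken to pair them.

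Leaving out each library gave 3 to 9 genes over all weeks, 0 to 268 at 2 weeks, 1 to 12 at 6 weeks, 2 to 4 at 12 weeks, and 1 to 102 in the contrast of 6 with 2 weeks. For 12 against 2 weeks it gave 0 (without BRAFV600E/PI3KαH1047R replicate 1 of 12 weeks) to 493 (without replicate 1 of 6 weeks), with 0 to 2 members called. Depth is unknown, and 1 to 5 libraries a group limit all intervals.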
